A study of Brassica rapa with 12 samples.

Results

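Unheated gi plants of Chinese cabbage (Brassica rapa, cultivar Chiifu), in which the gene GIGANTEA had been edited, were compared with unheated wild-type plants of the same cultivar. The comparison used 6 of the 12 libraries of the study, 3 titled gi and 3 titled Chiifu, all from plants kept at 22 °C. Messenger RNA came from whole plants 2 weeks old, grown on a plain half-strength salt medium. The other 6 libraries came from both genotypes after 1 h at 37 °C; they were fitted in the same model and gave a second look at genes chosen at 22 °C. The labels list gi as late and the wild type as early flowering. They do not say which bases were edited, how many edited lines or plants stood behind a library, or whether replicates were grown apart, so p-values measure the spread between these libraries, which may be technical.

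GIGANTEA is a large plant protein whose level follows the circadian clock. In Arabidopsis it helps light-dependent partners to remove repressors of the photoperiodic flowering genes, and plants that lack it flower late in long days. It also takes part in clock timing, seedling growth and stress tolerance there. The count tables name genes by ID, and none of the IDs could be paired with a gene name, so the level of GIGANTEA itself and of known clock or flowering genes was not analysed here, and the genotypes rest on the labels. An ID such as BraA06g010900.3.5C names a chromosome (A06) and a serial number. IDs next to each other were taken as neighbouring genes, by naming convention and without a check against a genome. No sequence is shown for the same reason.

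Total counts in genes were 43592355 to 47703118 in gi and 48105000 to 53587749 in wild type at 22 °C. Levels are given in CPM, counts relative to the scaled library size, and are not divided by gene length, so they compare libraries for 1 gene and not genes with each other. At these depths 3 counts, the floor used for a gene with no counts, stood for 0.0377 to 0.0532 CPM per library, which covers counting error only. Wild type replicate 1 stood apart. The median gene differed by 0.56 and 0.59 on the log2 scale between it and the other wild-type libraries, against 0.27 between those. Within gi these medians were 0.24 to 0.41, and between genotypes they were 0.32 to 0.60.

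At 22 °C, gi had 130 genes at a higher and 162 at a lower level than wild type by edgeR's quasi-likelihood test with Benjamini-Hochberg adjustment over 28846 genes. These are 0.451% and 0.562% of the genes tested. The higher genes had a median log2 difference of 1.69 and the lower ones of -2.98, while the median of all genes was -0.02. At least 8-fold differences were found for 34 of the higher and 81 of the lower genes. All 292 had non-overlapping libraries, which by itself gives the same sign in all 3 pairs of equal replicate number. Among all genes tested, 5912, or 20.5%, had non-overlapping libraries, and 11907 had the same sign in all 3 pairs. The higher genes took 0.885%, 0.770% and 0.734% of the tested counts in gi replicates 1 to 3, and 0.256%, 0.296% and 0.299% in wild type. The lower genes took 0.0841%, 0.0951% and 0.0981% in gi and 0.346%, 0.441% and 0.423% in wild type. In whole plants a lower level can mean fewer cells of a type or less RNA per cell, which cannot be told apart.

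**Figure D1:**
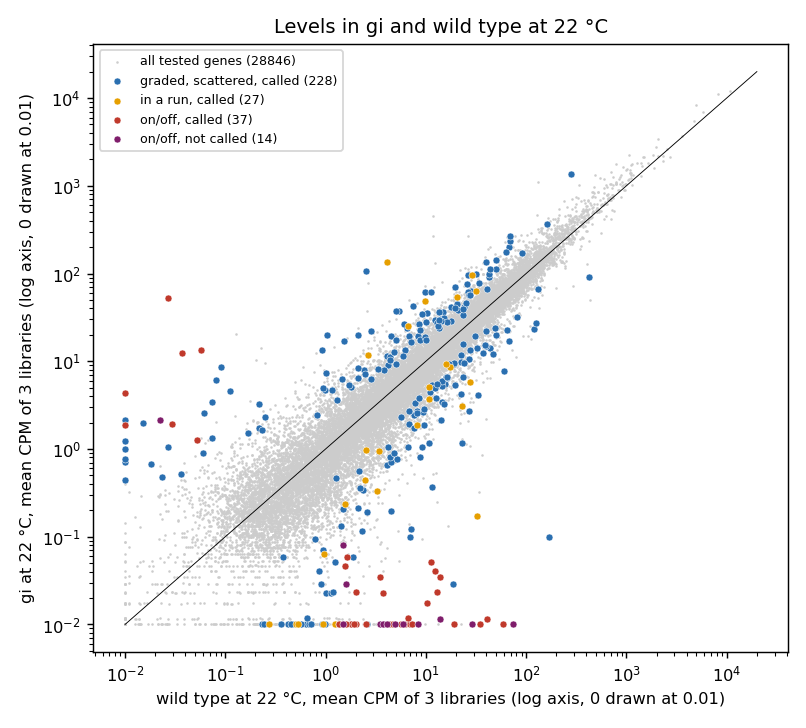
Mean CPM of 3 libraries in wild type (x axis) and gi (y axis) at 22 °C, both log axes with 0 drawn at 0.01; each point is a gene and the line marks equal levels. The 43 genes on in wild type alone lie at the bottom edge or near it, the 8 on in gi alone lie at the left edge or near it, and most graded genes lie closer to the line.

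The counts moved with single libraries and with the model. Omitting the first wild-type library at 22 °C, replicate 1, raised them to 432 genes up and 291 down. Omitting gi replicate 1 of the same temperature gave 46 and 63, and omitting gi replicate 2 gave 34 and 50. Omitting wild type replicate 2 gave 69 and 92, and omitting wild type replicate 3 gave 83 and 123. Libraries at 37 °C also moved the counts: 58 and 95 genes were called without gi replicate 2, 60 and 92 without gi replicate 3, and 82 and 116 without wild type replicate 1. Pairing the libraries by replicate number, as a block in the model, gave 74 and 80. The 6 libraries at 22 °C fitted alone gave 15 and 46, and DESeq2 gave 696 and 872. Higher genes were 44.5% of the calls with TMM scaling and 30.4% with total counts, which shifted the median of all genes to -0.17.

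Differences of an on/off kind were mostly losses in gi. A gene was counted as on/off where all 3 libraries of one genotype were under 0.1 CPM and all 3 of the other had at least 1 CPM. There were 43 such genes on in wild type and off in gi, 0.149% of the genes tested, and 8 on in gi and off in wild type, 0.0277%. In 25 of the 43, the 3 gi libraries held 0 counts together. The test called 30 of the 43 lower and 7 of the 8 higher. The 43 lay on 7 of the 10 chromosomes by their IDs, with 0 on A06, A08 and A10, and 1 was not placed on a chromosome. Some of the 43 were neighbours: 3 on A04 lay within 6 tested genes and 2 on A03 lay side by side, with 0 of these called. Other neighbouring on/off genes, on A02, A05 and A09, were all called. Of the 8, 3 lay on A06, 2 on A02, 2 on A09 and 1 on A10.

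BraA06g010900.3.5C had 46.2, 65.8 and 47.2 CPM in gi replicates 1, 2 and 3, and 0.0166, 0.0270 and 0.0377 CPM in wild type. It was the on/off gene with the highest CPM among those on in gi (log2 difference 10.77, SE 0.41, adjusted p = 1.04e-06). BraA06g016700.3.5C had 13.9, 14.8 and 11.8 CPM in gi and 0.0663, 0.0675 and 0.0377 CPM in wild type (log2 difference 7.84, SE 0.51, adjusted p = 0.000136). Both kept this state at 37 °C, except that wild type replicate 1 reached 0.116 CPM for the second.

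BraA09g062070.3.5C had 95.7, 52.4 and 29.7 CPM in wild type replicates 1, 2 and 3 and 0 counts in all 3 gi libraries. Set against 3 counts per library as the floor, gi was at least 1133-fold lower (adjusted p = 0.00451). BraA09g040770.3.5C had 66.3, 80.0 and 74.5 CPM in wild type and 0 counts in gi, at least 1407-fold lower, and yet it was not called (adjusted p = 0.0891). Its wild-type libraries at 37 °C had 39.2, 33.7 and 0 CPM, so wild type itself was in both states. Fitted on the 6 libraries at 22 °C alone, the same gene was called (adjusted p = 0.00403), as it was with the block within temperature (0.0391).

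Of the 13 genes off in gi that were not called, 12 had at least 1 wild-type library under 0.1 CPM at 37 °C. Of all 14 on/off genes not called, the fit on the 22 °C libraries alone called 9 and DESeq2 called all 14. The fit on the 22 °C libraries alone kept only 25 of the 37 on/off genes called in the main fit. It called 34 of the 51 on/off genes, against 37 in the main fit. On/off counts also moved with the libraries used. Without wild type replicate 1 there were 38 genes on in gi and 66 on in wild type. Genes on in gi were 14 without wild type replicate 2 and 15 without replicate 3, and genes on in wild type were 79 without gi replicate 3.

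**Figure D2:**
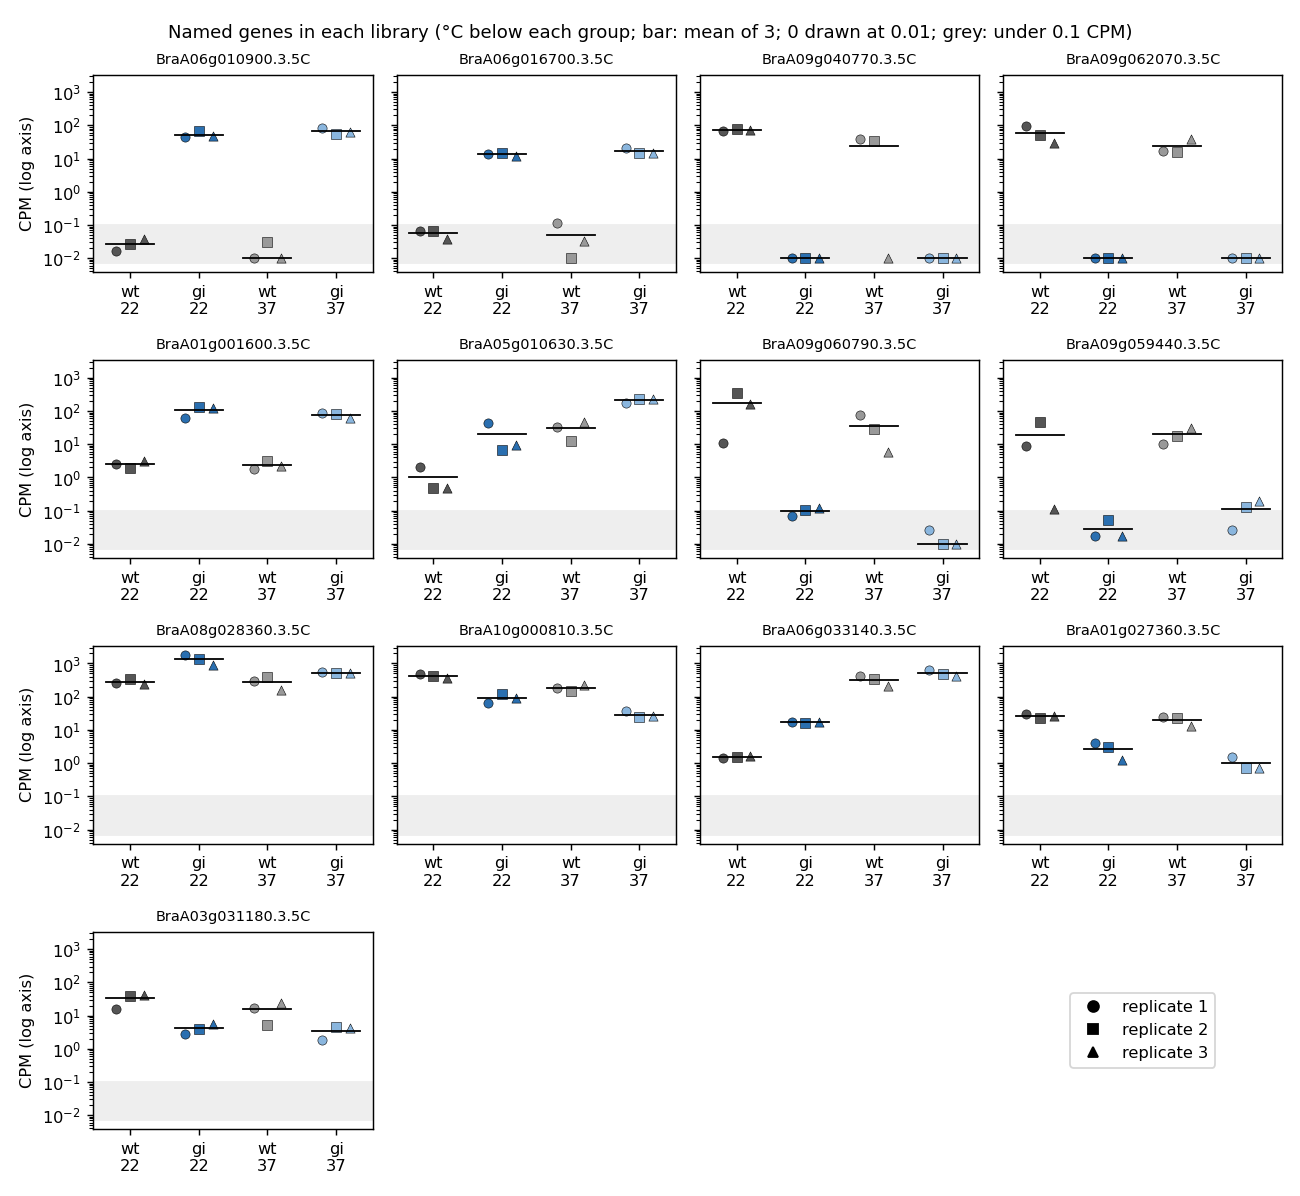
CPM in every library for the on/off and graded genes named in the text (y axis, log scale, 0 drawn at 0.01), with groups on the x axis, symbols for replicate numbers and bars for the mean of 3. The top row holds on/off genes; in BraA09g040770.3.5C, 1 wild-type library at 37 °C falls to 0 with the gi libraries.

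On/off differences were also found among replicates of 1 genotype. In wild type at 22 °C, 377 genes were under 0.1 CPM in some libraries and at least 1 CPM in the others, and in gi 109 genes were. Wild type replicate 1 alone was off for 95 genes, replicate 2 alone for 33 and replicate 3 alone for 85. Replicates 1 and 2 were off together for 90 genes, 2 and 3 for 70, and 1 and 3 for 4. In gi, 74 of the 109 genes were off in replicates 1 and 2 and on in replicate 3. Of these 74, 22 were on in all 3 wild-type libraries, 3 were off in all 3, and 21 lay on A09. These totals add up 6 ways to split 3 libraries and are not on the same footing as the 43 and 8 between genotypes. Whether the 51 on/off genes between genotypes share a source with those within genotypes was not tested.

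**Figure D3:**
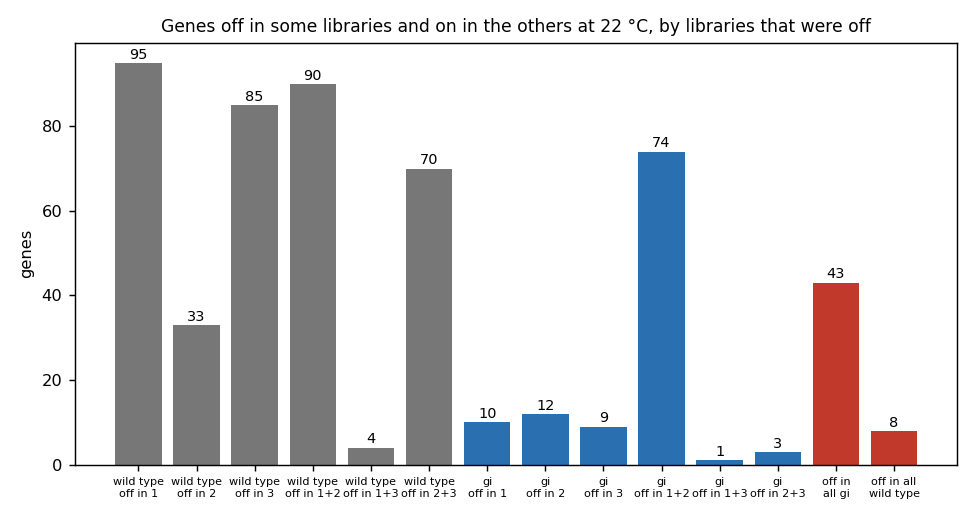
Number of genes (y axis, from 0) that were under 0.1 CPM in the libraries named below each bar and at least 1 CPM in the other libraries of the group at 22 °C; grey bars count within wild type, blue within gi, and red between genotypes. The bars within a genotype run from 1 to 95 genes, some above and some below the 43 genes off in all gi libraries.

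Runs of neighbouring IDs held a small part of the called genes. A run was at least 3 called genes on 1 chromosome, each at most 5 tested genes from the next. There were 10 such runs, with 34 called genes among the 61 tested genes they spanned. In 6 runs every called gene was lower in gi, in 4 the directions were mixed, and 0 runs were all higher. Altogether 27 genes of runs were lower and 7 higher, and 7 of the 34 were on/off genes. Of the 27 genes spanned but not called, 1 was the sole uncalled gene of its run, on A03, with a log2 difference of -0.96. In each of the other 6 runs with uncalled genes, their median was between -0.58 and 0.27.

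In 3 runs every tested gene was called, and in a pair of them no gi library held a count. On A02, all 4 tested genes from BraA02g030490.3.5C to BraA02g030520.3.5C had 0 counts in the 3 gi libraries at 22 °C and in the 3 at 37 °C. BraA02g030510.3.5C, the one with the highest CPM, had 2.09, 2.74 and 2.78 CPM in wild type replicates 1 to 3, and gi was at least 48.5-fold lower (adjusted p = 0.00524). On A05, all 4 tested genes from BraA05g020770.3.5C to BraA05g020810.3.5C were likewise at 0 counts in all 6 gi libraries. BraA05g020800.3.5C had 3.33, 3.02 and 7.69 CPM in unheated wild type, and gi was at least 89.5-fold lower (adjusted p = 0.00451). The genes of these runs were detected in every wild-type library at both temperatures. Not all of their calls were firm: the end gene BraA02g030520.3.5C had an adjusted p of 0.0959 with the replicate block, and BraA05g020770.3.5C and BraA05g020810.3.5C had 0.0734 and 0.0999. Leaving out gi replicate 1 or 2 or wild type replicate 2 or 3 ended the call of each of these 3 end genes, with adjusted p from 0.0518 to 0.109, and without gi replicate 3 that of BraA05g020810.3.5C was 0.0506. With the block set within each temperature, the genes of highest CPM lost their calls too, BraA05g020800.3.5C at an adjusted p of 0.0952 and BraA02g030510.3.5C at 0.117, as did BraA02g030490.3.5C at 0.120. With the 22 °C libraries alone, BraA05g020800.3.5C had 0.0630, BraA02g030490.3.5C 0.0717 and BraA02g030510.3.5C 0.0401. The third such run, on A09, held 3 lower genes, 2 of them on/off.

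The run with most called genes was of another kind. On A06, 5 of 16 tested genes from BraA06g018730.3.5C to BraA06g018950.3.5C were called, 2 higher and 3 lower. BraA06g018880.3.5C had 189.6, 125 and 87.6 CPM in gi replicates 1, 2 and 3 and 9.43, 2.19 and 0.641 CPM in wild type (log2 difference 5.04, SE 0.80, adjusted p = 0.0162). BraA06g018730.3.5C had 2.86, 3.58 and 2.76 CPM in gi and 6.78, 28.6 and 34.2 in wild type (log2 difference -2.92, SE 0.49, adjusted p = 0.0223, 0.0586 with the replicate block and 0.0900 with the block within temperature). Gains and losses stood side by side within this stretch. The call of BraA06g018880.3.5C was lost with the 22 °C libraries alone (adjusted p = 0.165). It was also lost without gi replicate 1 (adjusted p = 0.0547), gi replicate 2 (0.0542) or wild type replicate 2 (0.0687). That of BraA06g018730.3.5C was lost without gi replicate 1 (0.107), 2 (0.0950) or 3 (0.0521) and without wild type replicate 2 (0.0607) or 3 (0.0508). The last called gene, BraA06g018950.3.5C, had 0 counts in gi and an adjusted p of 0.0249, or 0.0829 with the block, 0.172 with the block within temperature, 0.0693 and 0.0907 without gi replicate 1 or 2, and 0.0591 without wild type replicate 3.

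The number of runs depended on the calls. With the replicate block, with the 22 °C libraries alone, and without gi at 22 °C replicate 1, gi at 22 °C replicate 2 or wild type at 22 °C replicate 2, 1 run was left in each case. Without wild type at 22 °C replicate 1 there were 37 runs. There were 5 without gi at 22 °C replicate 3 or wild type at 22 °C replicate 3, 6 without replicate 1 of gi or replicate 2 of wild type at 37 °C, 4 without replicate 2 or 3 of gi at 37 °C, and 3 without wild type at 37 °C replicate 1. By chromosome, 0.316% of the tested genes were called on A08 and 1.61% on A02 and on A06, with the other chromosomes between. Lower genes outnumbered higher ones 31 to 12 on A03 and 20 to 6 on A05, and higher ones outnumbered lower ones 15 to 4 on A10.

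**Figure D4:**
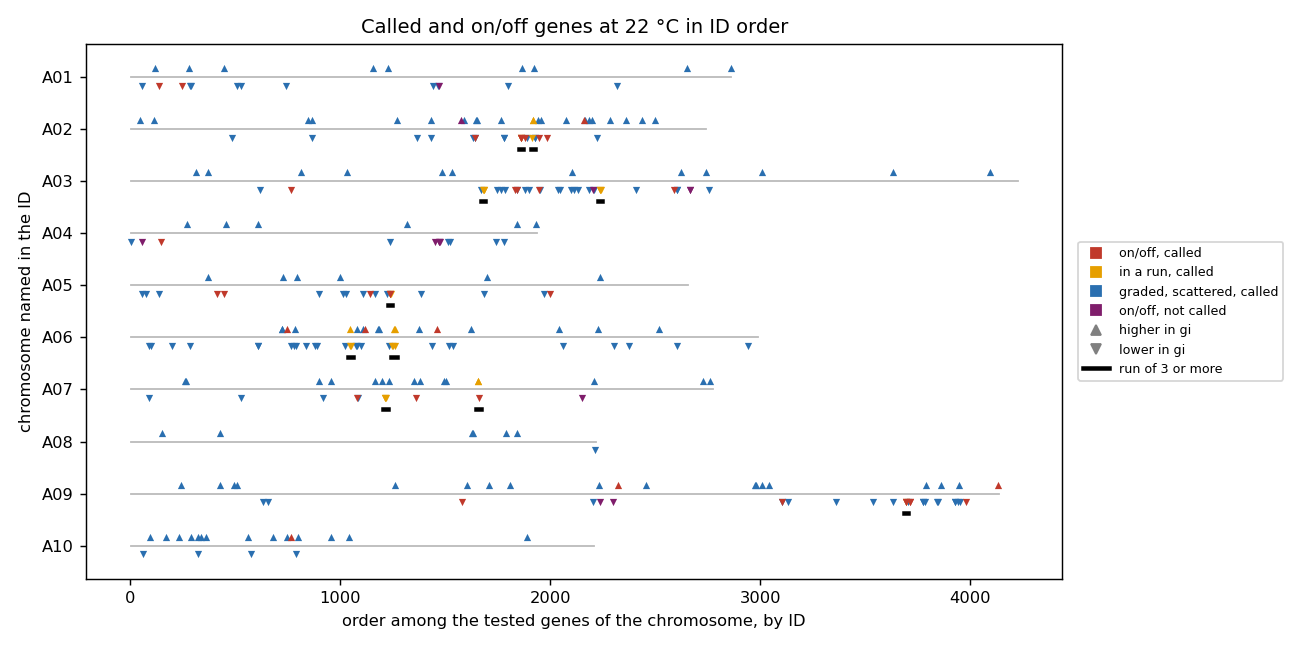
Called and on/off genes of the 22 °C comparison by chromosome (y axis) and by order of ID among the tested genes of that chromosome (x axis), with triangles up for higher and down for lower in gi, colours for the kind of difference and black bars for the 10 runs. Most symbols lie apart from each other, and 34 called genes lie in the runs.

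The remaining 228 called genes were not on/off and not in a run of at least 3, 116 higher and 112 lower in gi. They are termed scattered, although some lay near another called gene. Runs of at least 2 called genes numbered 37 and held 88 called genes, against 34 in the runs of at least 3. Of the 228, 39 were still under 0.1 CPM in all libraries of one genotype, 12 of them higher and 27 lower. These 39 did not reach 1 CPM in all libraries of the other. A total of 144 had at least 1 CPM in all 6 libraries, 85 higher and 59 lower. That split depended on the scaling, since 41 of the 85 and 55 of the 59 were still called with total counts. The median log2 difference of the 85 was 1.30 and of the 59 was -1.36. At least 8-fold differences were found for 2 of the 85 and 2 of the 59. This split of the graded genes was chosen after their values were seen.

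Among genes graded in this sense, BraA01g001600.3.5C had 61.3, 130.4 and 125.9 CPM in gi replicates 1, 2 and 3 and 2.54, 1.93 and 3.18 CPM in wild type. Its log2 difference of 5.37 (SE 0.37, adjusted p = 0.000136) was the largest of the 85. BraA06g033140.3.5C had 17.4, 15.998 and 17.7 CPM in gi and 1.43, 1.499 and 1.62 CPM in wild type (log2 difference 3.49, SE 0.29, adjusted p = 0.000509). Its replicates lay close together in both genotypes, and the groups did not overlap. BraA05g010630.3.5C, which fell under 1 CPM in some wild-type libraries, had 42.9, 6.86 and 9.59 CPM in gi and 2.14, 0.473 and 0.478 CPM in wild type (log2 difference 4.28, SE 0.87, adjusted p = 0.0483). Replicate 1 was the high library in both genotypes, and the call was lost without gi replicate 1 (adjusted p = 0.137), gi replicate 2 (0.0703), wild type replicate 2 (0.131) or wild type replicate 3 (0.130). With the 22 °C libraries alone, BraA05g010630.3.5C was not called (adjusted p = 0.218), while BraA01g001600.3.5C (0.0187) and BraA06g033140.3.5C (0.0040) were.

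BraA01g027360.3.5C had 3.92, 3.08 and 1.20 CPM in gi and 30.1, 23.2 and 27.1 CPM in wild type, the largest graded loss among genes with at least 1 CPM in all 6 libraries (log2 difference -3.29, SE 0.45, adjusted p = 0.00800). Fitted on the 22 °C libraries alone, it was not called (adjusted p = 0.0660). BraA03g031180.3.5C had 2.80, 3.95 and 5.53 CPM in gi and 16.031, 39.8 and 42.7 CPM in wild type (log2 difference -3.0027, SE 0.59, adjusted p = 0.0431). The latter passed narrowly, with an adjusted p of 0.0509 under the replicate block, 0.0914 under the block within temperature, and of 0.183, 0.182 and 0.0573 without gi replicate 1, 2 or 3 and 0.0968 and 0.0874 without wild type replicate 2 or 3.

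A pair of A09 genes had the largest fitted losses among the scattered graded genes and bordered on the on/off class. BraA09g060790.3.5C had 10.991, 337 and 159 CPM in wild type replicates 1 to 3, while gi had 0.0710, 0.103 and 0.122 CPM (log2 difference -10.71, SE 1.53, adjusted p = 0.00964, but 0.0650 without gi replicate 1 and 0.0676 without gi replicate 2). With the 22 °C libraries alone, its adjusted p was 0.0720. BraA09g059440.3.5C had 9.17, 46.1 and 0.113 CPM in wild type, while gi had 0.0177, 0.0513 and 0.0174 CPM (log2 difference -9.19, SE 1.85, adjusted p = 0.0474, but 0.0960 with the replicate block). Its wild type replicate 3 lay near the gi level and far below the other wild-type libraries. Without gi replicate 1, 2 or 3 or wild type replicate 2 its adjusted p was 0.194, 0.204, 0.0927 and 0.0863.

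The graded genes with the highest CPM in each direction were plainly detected in every library. BraA08g028360.3.5C had 1815, 1325 and 900 CPM in gi and 260.0, 344 and 236 CPM in wild type (log2 difference 2.27, SE 0.37, adjusted p = 0.0184). It was no longer called without gi replicate 1 (adjusted p = 0.0654), gi replicate 2 (0.0770) or wild type replicate 3 (0.0660), or with the block within temperature (0.0567). BraA10g000810.3.5C had 65.3, 119.8 and 88.8 CPM in gi and 478, 428 and 356 CPM in wild type (log2 difference -2.20, SE 0.28, adjusted p = 0.00524). With the 22 °C libraries alone, neither BraA10g000810.3.5C (adjusted p = 0.0713) nor BraA08g028360.3.5C (0.113) was called.

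The 6 libraries at 37 °C, which were part of the fit behind the 22 °C calls, gave the same sign for all 51 on/off genes. Among all tested genes, the sign at 37 °C was opposite for 5597 of 13838 higher and 5672 of 14985 lower at 22 °C. At 37 °C, gi was called higher for 1.29% of all tested genes and lower for 1.4%. Of the on/off genes called at 22 °C, 29 of 30 lower and 5 of 7 higher genes were called the same way at 37 °C. Which of them were called at 22 °C already depended on the 37 °C libraries through the shared fit. Over all on/off genes, called at 22 °C or not, 30 of 43 lower and 5 of 8 higher genes were called the same way. Of the 14 not called at 22 °C, 1 was. In 38 of the 43 genes off in gi, all 3 gi libraries were again under 0.1 CPM after heat, and 22 had 0 counts in all 6 gi libraries. Wild type was less steady, with at least 1 library under 0.1 CPM at 37 °C in 14 of the 43. The full on/off pattern was met again in 16 of the 43 and in 4 of the 8 genes on in gi, against 0.173% and 0.0936% of all tested genes at 37 °C.

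Graded genes were called again less often, in counts whose difference between classes was not tested. Of the 116 higher ones 36 were called higher at 37 °C, and of the 112 lower ones 67 were called lower. Among those with at least 1 CPM in all 6 libraries, 18 of 85 and 31 of 59 were. The median log2 difference of the 85 was 1.30 at 22 °C and 0.54 at 37 °C, and that of the 59 was -1.36 and -1.03. The genes were chosen by their 22 °C differences, so the medians at the 2 temperatures are not on the same footing. Genes in runs outside the on/off class were called again in 2 of 7 higher and 13 of 20 lower cases. Of the 292 genes called at 22 °C, 0 were called in the opposite direction at 37 °C by edgeR, although 24 had the opposite sign, 19 of them higher at 22 °C.

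The test of the difference between temperatures called 0.118% of all tested genes and 7 of the 292, all 7 of them graded. Its leading case was BraA06g033140.3.5C, described above. At 37 °C this gene had 652, 471 and 406 CPM in gi and 416, 350 and 209.8 CPM in wild type, so the groups came closer together at much higher levels (log2 difference 0.65, adjusted p = 0.192). The graded gene BraA01g001600.3.5C instead kept its difference, with 87.0, 79.3 and 61.0 CPM in gi and 1.80, 3.04 and 2.18 CPM in wild type at 37 °C (log2 difference 5.02, adjusted p = 0.000117).

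**Figure D5:**
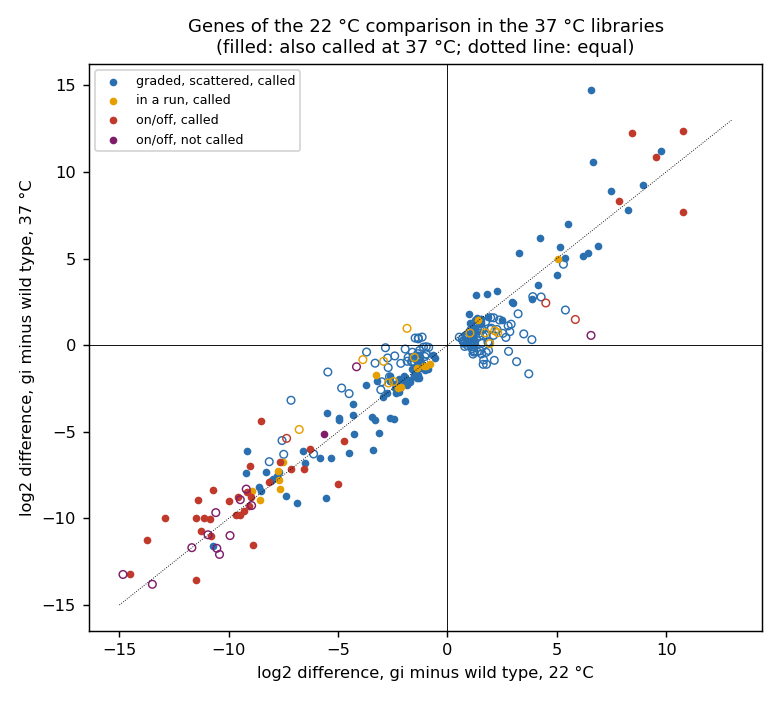
Log2 difference between gi and wild type at 22 °C (x axis) and at 37 °C (y axis) for the called and on/off genes of the 22 °C comparison, filled where also called at 37 °C; the dotted line marks equal differences. Most on/off genes lie far out near the line, and graded genes higher at 22 °C spread down to and below 0 at 37 °C. Of the 43 genes off in gi, 22 had 0 counts in all 6 gi libraries, so no gi level was measured for them. The place of these 22 reflects the wild-type levels and how the fit treats 0 counts.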

How the data were processed

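Messenger RNA libraries from 12 samples were used as raw counts of reads per gene, which the authors deposited as 1 table per sample. The submitters' processing notes list the tools TopHat2, HTSeq, FastQC and edgeR with no version. The genome build, annotation and strand setting are not given in the sources used here. Reads that were not counted to a gene, whatever the reason, were 8.37% to 10.1% of the aligned reads and were kept out. Genes were filtered with filterByExpr (minimum count 10, total 15), scaled by TMM and fitted with edgeR 4.0.16 in R 4.3.3 as 4 group means over 12 libraries. A gene was called at a Benjamini-Hochberg adjusted p under 0.05; SEs were derived from the log2 difference and F. Scripts were tested on simulated data. The members, limits and classes were chosen with earlier results of these data known.

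Named genes were, in each direction, the 2 on/off genes with the highest CPM, the 2 scattered graded genes of at least 10 CPM with the largest difference, the 1 with the highest CPM, and the ends and the gene of highest CPM of the 3 runs with most called genes. The 2 largest differences each way among graded genes with at least 1 CPM in all 6 libraries were added after their values were seen. Equal replicate numbers were treated as pairs in the replicate blocks and in the counts of signs over 3 pairs. The labels do not state what these numbers mean. The main fit held no pairing, so its adjusted p-values are unpaired. Deviations from the group means correlated at 0.285, 0.145 and 0.220 between equal numbers and at most 0.0381 between unequal ones. The 3 deviations of a group cancel out for each gene, so low values between unequal numbers follow in part from those between equal numbers. Alternatives were other scalings, no filter, DESeq2 1.42.0, the 22 °C libraries alone, replicate blocks, other limits and leaving out each library.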

Additional observations from a re-analysis of the deposited data

Results flagged for a closer look

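The genotype difference itself differed between 22 °C and 37 °C for 7 of the 292 genes called at 22 °C, by edgeR's interaction test with adjustment over all genes. The 292 were chosen by their 22 °C differences, which the interaction test uses again, so the 7 are a description of this set. The smallest adjusted p among the genes named in the text was 0.0211, for BraA06g033140.3.5C, whose log2 difference was 3.49 at 22 °C and 0.65 at 37 °C. Of the 7 genes, 6 were higher in gi at 22 °C and 1 was lower.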

How the results depend on the processing

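Genes called higher and lower (130 and 162) numbered 696 and 872 with DESeq2, 15 and 46 with the 22 °C libraries alone, 74 and 80 with the replicate block, 40 and 58 with the block within temperature, and 1 and 0 with the 22 °C libraries and the block; 80 were higher with total counts. Leaving out 1 library gave 34 to 432 higher and 50 to 291 lower genes, 9 to 38 genes on in gi, 43 to 79 on in wild type, and 1 to 37 runs with 3 to 141 genes. Requiring the on/off state at 37 °C too left 4 and 16. Runs and their genes numbered 6 and 20 at a gap of 3, 19 and 70 at a gap of 10, 37 and 88 with 2 called genes, 110 and 443 with DESeq2, and 1 and 3 with the replicate block or the 22 °C libraries alone. With at least 1 CPM in all 6 libraries, 59 graded genes were lower. Called again at 37 °C were 4 higher genes of runs and 59 higher graded genes with DESeq2, and 8 lower genes of runs with the block. The cause was not tested beyond what fewer libraries or other limits imply. With the block, 139 of the 292 calls remained, 26 of 37 on/off, 12 of 27 in runs and 101 of 228 graded. Fewer remained with the block within temperature: 74 of the 292, with 15 on/off, 7 in runs and 52 graded. The 22 °C libraries alone kept 48 of the 292, with 25 on/off, 2 in runs and 21 graded. No direction of a named gene reversed under the alternatives run.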
